A study of Mus musculus with 15 samples.

Results

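The major urinary protein genes examined here were Mup1, Mup3, Mup7, Mup11, Mup17, Mup20 and Mup21, 7 genes chosen by their symbols from the 26839 genes counted in mouse liver. They were picked with their counts in all 5 groups of the study already known, so their levels and differences are given as a description, without p-values. A call of a member marks only that its adjusted p fell under the threshold, and is not independent support for a change. The choice set no threshold on a value, and the other 14 protein-coding Mup genes and 21 Mup pseudogenes in the files are described beside them. All 7 members passed the filter on low counts in every comparison.

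Polyadenylated RNA of mouse liver (C57BL/6J, males) had been sequenced in 15 libraries, 3 for each of 5 groups. All animals carried an adeno-associated virus of serotype 8 (AAV8). The chow GFP group ate standard chow for 16 weeks and received green fluorescent protein (GFP) under the liver-specific thyroxine binding globulin (TBG) promoter. The other 4 groups had sugar water and a diet used to bring on non-alcoholic steatohepatitis (NASH), a fatty and inflamed liver, for 16 weeks. Of these, the NASH GFP group received TBG-driven GFP and the Activin A group TBG-driven Activin A, a secreted dimer related to transforming growth factor beta. The scramble group received a control hairpin RNA and the Gpnmb hairpin group a hairpin against Gpnmb, a transmembrane glycoprotein of macrophages, each under the H1 promoter, which is not specific to hepatocytes. There was no uninfected group, no chow group with a hairpin and no chow group with Activin A. Whether each library is a separate animal is not stated in the labels.

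Major urinary proteins are small secreted lipocalins, barrel-shaped carriers made mainly by hepatocytes in adult mice and passed from the blood into the urine, where they hold and slowly release volatile scent molecules. Male mice make more of them than females, and pulses of growth hormone acting through its receptor, Jak2 and Stat5b are a main drive of that difference, with androgens, glucocorticoids and thyroid hormone acting as well. The genes lie in a single cluster of repeated copies, in which older and more diverged genes lie at the edges and many nearly identical ones between them.

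In all 42 Mup genes, the position in the deposited tables was the same as in GENCODE release M21, and the cluster spanned chromosome 4 from 59956804 to 62150863 (GRCm38). The 7 members lay on the minus strand. In order along the chromosome they were Mup7 (60066469 to 60070475), Mup1 (60498012 to 60501960), Mup11 (60658466 to 60662411), Mup17 (61591929 to 61595871), Mup20 (62050234 to 62054158), Mup3 (62083476 to 62087342) and Mup21 (62147932 to 62150863). A stretch of 60 coding bases inside a single exon shows how alike they are, and bears on how far their counts can be separated. It is printed 5′ to 3′ on the coding strand, with capitals where a gene differs from Mup7.
Mup7: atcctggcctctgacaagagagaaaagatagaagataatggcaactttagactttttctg
Mup1: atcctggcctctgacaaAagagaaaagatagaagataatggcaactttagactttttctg
Mup11: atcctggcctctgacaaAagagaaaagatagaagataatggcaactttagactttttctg
Mup17: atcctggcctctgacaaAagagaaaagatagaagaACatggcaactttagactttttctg
Mup20: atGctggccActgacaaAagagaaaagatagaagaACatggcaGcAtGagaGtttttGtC
Mup3: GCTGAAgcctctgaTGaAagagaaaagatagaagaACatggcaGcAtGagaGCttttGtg
Mup21: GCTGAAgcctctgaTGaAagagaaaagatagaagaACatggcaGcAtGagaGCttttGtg
These stretches lie at chr4:60069783-60069842, chr4:60501332-60501391, chr4:60661780-60661839, chr4:61595243-61595302, chr4:62053530-62053589, chr4:62086850-62086909 and chr4:62150245-62150304, in the same order as the lines.

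Mup1 and Mup11 had the same bases in that stretch and differed from Mup7 at 1 base, Mup17 differed at 3, Mup20 at 11, and Mup3 and Mup21, again the same as each other, at 17. Over the aligned coding sequence, Mup1, Mup7, Mup11 and Mup17 were 98.3% to 99.1% identical to each other. Mup20, whose protein is the male scent signal darcin, was 90.4% to 91.3% identical to those 4. Mup3 and Mup21 were 95.4% identical to each other, differing at 25 of 543 bases, and 83.1% to 87.5% identical to the other members. The sources used here do not give how reads shared by near-identical genes had been counted. As a measure of what could be separated, 97.8% of the 100-base stretches of the Mup3 transcripts and 95.5% of those of Mup21 occurred in no other annotated gene. This share was 61.2% for Mup20, 44.3% for Mup1, 40.6% for Mup17, 29.4% for Mup11 and 23.9% for Mup7. Mup20 shared the other 38.8% of its stretches with the pseudogene Mup-ps19, while Mup7 shared most with Mup1 (48.0%), Mup1 with Mup12 (39.4%), Mup11 with Mup14 (48.8%) and Mup17 with Mup13 (33.5%). Values of Mup1, Mup7, Mup11 and Mup17 are therefore uncertain as to which gene the reads came from, and sums over the family are given first.

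Libraries held 15276879 to 23467867 counts. Levels are counts scaled to a library total of 1000000 (CPM). Gpnmb stood at 31.4 ± 5.06 CPM (SD, n = 3) in scramble and 2.02 ± 1.13 in Gpnmb hairpin livers, and at 30.6 ± 8.89 in NASH GFP livers. Inhba, which encodes the subunit of Activin A, stood at 8.06 ± 0.114 CPM in NASH GFP and 25.0 ± 0.924 in Activin A livers. Hepatocyte markers were detected in every group, and all 7 of them were above 0. NASH GFP library 1 stood below libraries 2 and 3 of its group in the members other than Mup20. Levels are therefore printed for each library, and for fold changes, list counts and correlations that use the NASH GFP group, values without library 1 are given where they change a call or move the value most.

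Together the 7 members took the largest share of all counts in chow livers and the smallest under Activin A, with the Gpnmb hairpin group second and the other NASH diet groups between. Their shares were 3.15%, 2.35% and 2.93% in the chow libraries (mean 2.81 ± 0.415, SD, n = 3). In NASH GFP livers they were 0.410%, 0.834% and 0.977% (mean 0.740 ± 0.295), with a mean of 0.905% over libraries 2 and 3. Activin A livers had 0.272%, 0.280% and 0.264% (mean 0.272 ± 0.00799). Every Activin A library lay below every NASH GFP library, and every NASH GFP library below every chow library. Scramble livers had 0.737%, 0.711% and 0.737% (mean 0.728 ± 0.0149), and Gpnmb hairpin livers had 1.28%, 1.72% and 2.12% (mean 1.71 ± 0.422). The scramble and hairpin libraries did not overlap, and the scramble libraries lay within the range of the NASH GFP libraries. Over all 21 protein-coding Mup genes the mean shares were 3.84%, 0.907%, 0.294%, 0.916% and 2.21% in chow GFP, NASH GFP, Activin A, scramble and Gpnmb hairpin livers. That is the order found for the 7 members, except that NASH GFP and scramble, whose libraries overlapped, changed places. Without NASH GFP library 1 the NASH GFP mean over the coding genes was 1.12%, above scramble. In whole liver, fewer hepatocytes and less RNA per hepatocyte cannot be told apart.

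**Figure D1:**
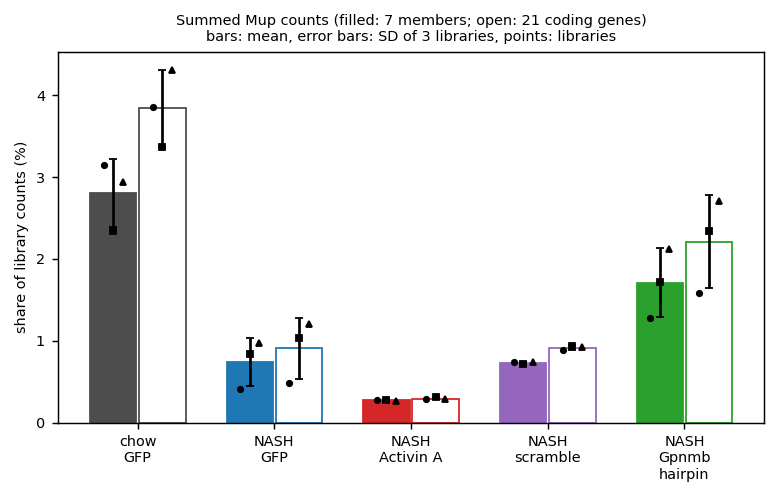
Share of each library's counts (%) taken by Mup genes in the 5 groups; filled bars are the 7 members and open bars all 21 protein-coding Mup genes, with SD of 3 libraries and a point for each library. The members stand at 2.81% in chow GFP, 0.740% in NASH GFP, 0.272% in Activin A, 0.728% in scramble and 1.71% in Gpnmb hairpin livers.

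Levels of the single members are described from the more separable genes to the less separable. Mup3, a diverged gene at the edge of the cluster, stood at 8820, 10068 and 12972 CPM in chow, 1475, 2811 and 3409 in NASH GFP, 1123, 1356 and 1185 in Activin A, 3464, 2064 and 2632 in scramble and 4730, 5273 and 6964 in Gpnmb hairpin libraries. It was highest in chow, next highest with the Gpnmb hairpin and lowest under Activin A, and only the NASH GFP and scramble libraries overlapped between neighbouring groups. Its mean fell from 10620 ± 2130 CPM (SD, n = 3) in chow to 2565 ± 990 in NASH GFP livers.

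Mup21, the gene most like Mup3 in sequence, stood at 268, 278 and 368 CPM in chow, 29.1, 64.2 and 68.3 in NASH GFP, 30.4, 42.0 and 32.9 in Activin A, 44.8, 30.5 and 38.7 in scramble and 174, 270 and 344 in Gpnmb hairpin libraries. Chow and Gpnmb hairpin libraries overlapped at the high end. NASH GFP, scramble and Activin A libraries overlapped at the low end, with means of 53.8 ± 21.6, 38.0 ± 7.18 and 35.1 ± 6.10 CPM. Relative to Mup3, the distance between the scramble and hairpin groups was larger in Mup21, whose hairpin libraries reached the chow range while those of Mup3 did not.

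Mup20, the darcin gene, was the member with the smallest spread between diets. Its libraries were at 2982, 2354 and 3445 CPM in chow, 1930, 2071 and 1865 in NASH GFP, 1112, 1195 and 1096 in Activin A, 1482, 1668 and 1674 in scramble and 2897, 4969 and 5411 in Gpnmb hairpin livers. The Gpnmb hairpin group had the highest mean (4426 ± 1343), above chow (2927 ± 547), though their libraries overlapped. Below these came NASH GFP (1956 ± 105), scramble (1608 ± 109) and Activin A (1134 ± 53.3), and none of those 3 groups overlapped its neighbours. NASH GFP library 1 was not low for Mup20.

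Mup7 had the widest range of the members. It stood at 16922, 9531 and 13420 CPM in chow, 212, 1554 and 2105 in NASH GFP, 40.6, 69.0 and 47.9 in Activin A, 712, 1293 and 1142 in scramble and 2007, 2726 and 4254 in Gpnmb hairpin libraries. The Activin A libraries lay below all others. NASH GFP libraries overlapped the scramble libraries and, through library 3, the Gpnmb hairpin libraries.

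Mup17 stood at 4589, 4326 and 5105 CPM in chow, 93.6, 1425 and 1812 in NASH GFP, 372, 89.8 and 215 in Activin A, 1221, 1053 and 1100 in scramble and 2400, 3184 and 3720 in Gpnmb hairpin libraries. NASH GFP library 1 lay inside the Activin A range, so those groups overlapped. The scramble libraries lay between the lowest and the highest NASH GFP library.

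Mup11 stood at 652, 443 and 642 CPM in chow, 16.0, 93.2 and 205 in NASH GFP, 41.2, 28.2 and 32.5 in Activin A, 170, 187 and 182 in scramble and 401, 550 and 768 in Gpnmb hairpin libraries. Chow (579 ± 118) and Gpnmb hairpin livers (573 ± 185) overlapped, and the NASH GFP libraries ran from below the Activin A to above the scramble libraries.

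Mup1, which has been studied as a secreted regulator of glucose metabolism, had the lowest counts. It stood at 185, 77.5 and 76.2 CPM in chow, 2.41, 8.22 and 12.4 in NASH GFP, 1.04, 1.89 and 1.45 in Activin A, 9.86, 15.0 and 12.2 in scramble and 10.8, 28.7 and 38.4 in Gpnmb hairpin libraries. Hairpin, scramble and NASH GFP libraries overlapped each neighbour in that order, while chow lay above and Activin A below all others. NASH GFP library 1 was the lowest of its group for Mup1, Mup3, Mup7, Mup11, Mup17 and Mup21.

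**Figure D2:**
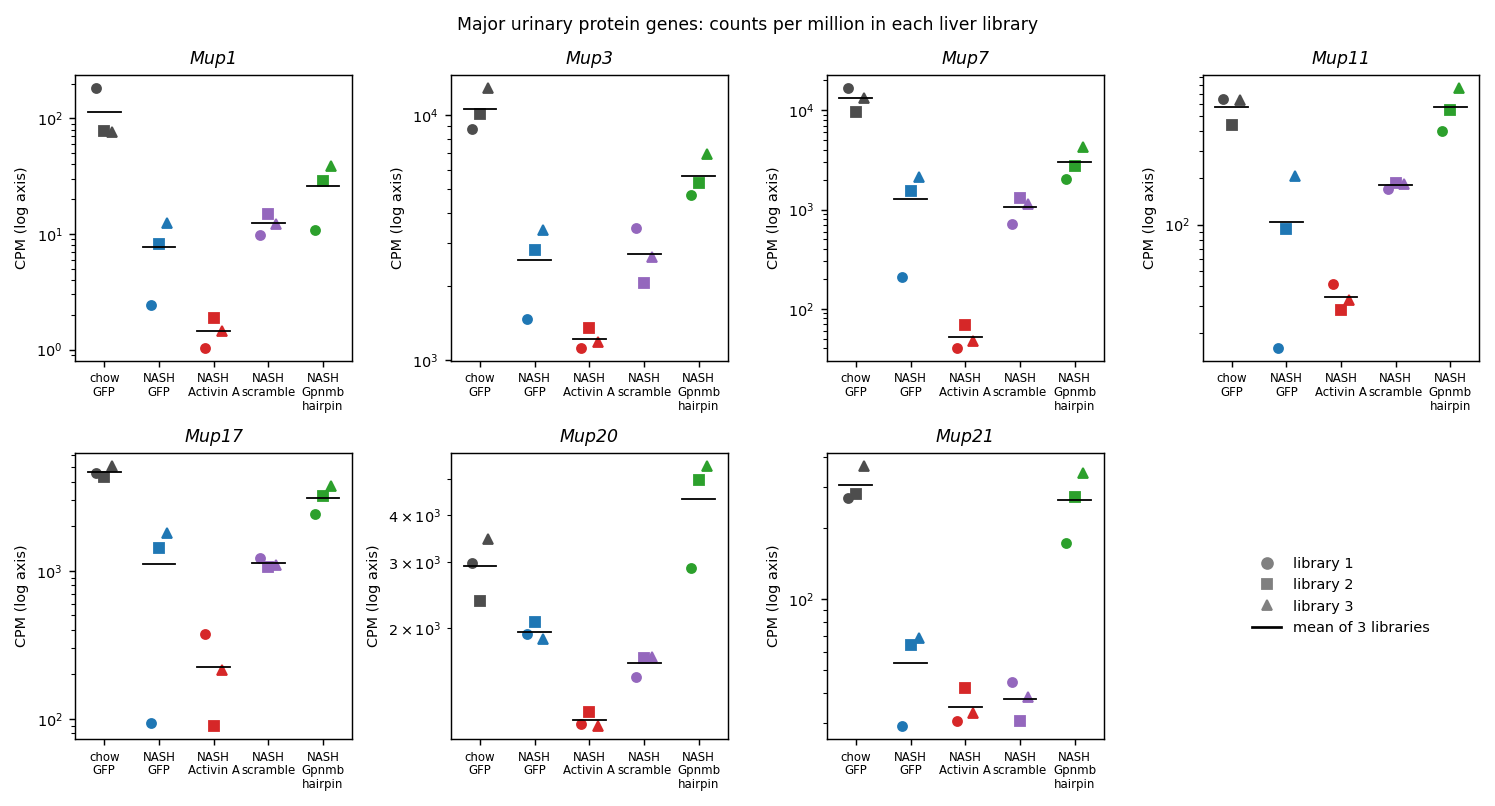
Level of each member in every library, in CPM on a log axis, by group; symbols are libraries 1 to 3 and the line is their mean. Mup7 runs from 40.6 CPM in an Activin A library to 16922 in a chow library, and NASH GFP library 1 lies far below libraries 2 and 3 for Mup7, Mup11 and Mup17 but not for Mup20.

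Per kilobase of the deposited gene length, the members' mean levels in chow livers were in the order Mup7 (12867 CPM per kilobase), Mup3 (9943), Mup17 (5041), Mup20 (3154), Mup21 (450), Mup11 (367) and Mup1 (71.3). In Activin A livers the order was Mup20 (1222), Mup3 (1144), Mup17 (243), Mup21 (51.9), Mup7 (50.8), Mup11 (21.5) and Mup1 (0.921). Mup7 thus moved from the top of the order in chow livers to below Mup21 in Activin A livers. Of the counts of the 7 members, Mup7 held 49.2%, 35.2% and 37.3% in the chow libraries and 1.49%, 2.48% and 1.84% in the Activin A libraries. Mup20 held 8.66%, 8.70% and 9.56% in chow and 40.9%, 43.0% and 42.0% under Activin A. In NASH GFP livers Mup20 held 51.4% in library 1 but 25.8% and 19.7% in libraries 2 and 3. The Gpnmb hairpin group differed from chow in make-up, although its summed share was the next highest: Mup7 held 15.9%, 16.0% and 19.8% there and Mup20 23.0%, 29.2% and 25.2%, where Mup7 held at most 20.5% and Mup20 at most 26.4% in the scramble libraries.

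**Figure D3:**
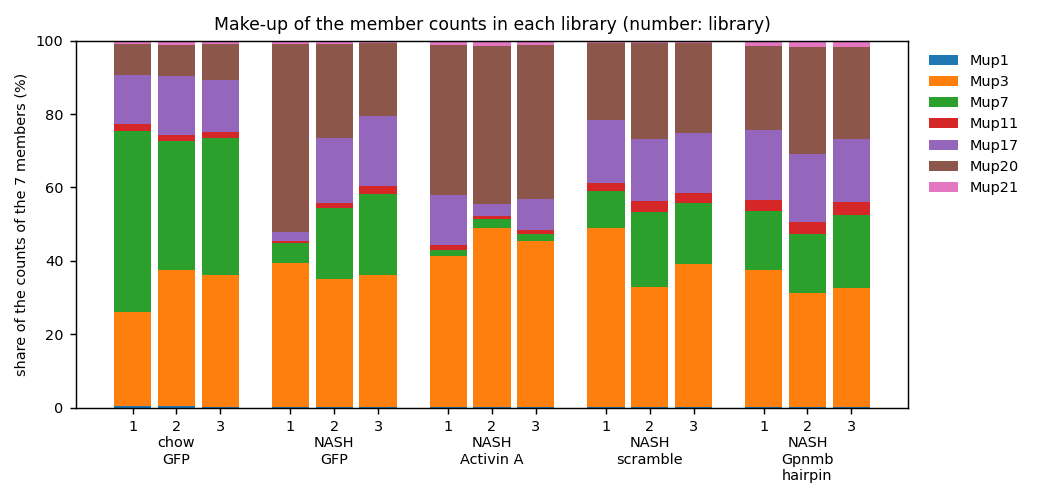
Make-up of the counts of the 7 members in each library (% of their sum), by group and library number. Mup7 holds 35.2% to 49.2% in chow libraries and 1.49% to 2.48% in Activin A libraries, and Mup20 8.66% to 9.56% and 40.9% to 43.0%.

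The first comparison, NASH GFP against chow GFP, addressed the change in liver with the NASH diet. Each of the 7 members was lower in every NASH GFP library than in every chow library. Log2 fold changes, from edgeR's quasi-likelihood fit with standard errors (SE), were -3.86 ± 0.54 for Mup1, -3.33 ± 0.65 for Mup7, -2.46 ± 0.30 for Mup21, -2.43 ± 0.65 for Mup11, -2.04 ± 0.73 for Mup17, -2.01 ± 0.30 for Mup3 and -0.55 ± 0.18 for Mup20. As folds these ran from 1.46-fold lower for Mup20 to 14.5-fold lower for Mup1. A gene was called where the adjusted p over all genes was under 0.05, and 5 members were called lower, all but Mup17 and Mup20, where 5.82% of the 14388 genes tested were called lower. Groups did not overlap, with the NASH GFP libraries lower, in 16.4% of genes tested. Their median log2 fold change was -2.43, beside -0.01 over all genes. Without NASH GFP library 1 the changes were smaller for 7 of 7 members (Mup7 at -2.82 ± 0.30, Mup17 at -1.49 ± 0.21) and 6 members were called lower, Mup17 among them. It was 4 members without NASH GFP library 2, chow library 1 or chow library 3, where Mup11 was not called.

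The second comparison set Activin A against NASH GFP, the same NASH GFP libraries as in the diet comparison, so the 2 sets of values are not independent. Log2 fold changes were -4.62 ± 0.70 for Mup7, -2.39 ± 0.53 for Mup1, -2.30 ± 0.84 for Mup17, -1.63 ± 0.65 for Mup11, -1.07 ± 0.25 for Mup3, -0.79 ± 0.10 for Mup20 and -0.62 ± 0.28 for Mup21. Mup1, Mup3, Mup7 and Mup20 were called lower and their groups did not overlap, whereas Mup11, Mup17 and Mup21 were not called and their groups overlapped. Of the 14598 genes tested, 3.86% were called lower, and in 13.4% the Activin A libraries all lay below the NASH GFP libraries. Mup7, at 24.6-fold lower, had the largest change of the members, and Mup20 had the smallest SE. The number of members called rested on single libraries: it was 7 without NASH GFP library 1, with Mup17 at -2.84 ± 0.45, Mup11 at -2.13 ± 0.29 and Mup21 at -0.92 ± 0.14. It was 2, Mup7 and Mup20, without NASH GFP library 2 or without any 1 of the 3 Activin A libraries. Calls over all genes, in either direction, moved as well. They were 3.98% without NASH GFP library 1, 4.2% without NASH GFP library 2 and 1.65% to 2.47% without an Activin A library.

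The third comparison, Gpnmb hairpin against scramble, addressed the effect of lowering Gpnmb in livers on the NASH diet. All 7 members were called higher, where 12.2% of the 14845 genes tested were called higher. Log2 fold changes were 2.79 ± 0.22 for Mup21, 1.67 ± 0.18 for Mup11, 1.51 ± 0.26 for Mup7, 1.46 ± 0.14 for Mup17, 1.46 ± 0.19 for Mup20, 1.07 ± 0.35 for Mup1 and 1.05 ± 0.19 for Mup3. Hairpin libraries lay above the scramble libraries without overlap for all members but Mup1, as they did in 20.9% of all genes tested. The fold was 6.90 for Mup21 and between 2.07 and 3.18 for the other 6. Mup1 was not called when any library but hairpin library 1 was left out (0.68 to 1.23 on the log2 scale), and the other 6 members were called in each of the 6 cases. In a fit over all 5 groups, 4 members were called higher, without Mup1, Mup7 and Mup17.

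The effects of Activin A and of the hairpin were set against each other in a fit over the 15 libraries, which shares no control library between them. The Activin A effect minus the hairpin effect was -6.13 ± 0.78 on the log2 scale for Mup7, -3.76 ± 0.89 for Mup17, -3.45 ± 0.77 for Mup1, -3.40 ± 0.40 for Mup21, -3.29 ± 0.72 for Mup11, -2.25 ± 0.26 for Mup20 and -2.13 ± 0.36 for Mup3. This difference was called lower for all 7, where 2.14% of 15665 genes were. The call of Mup17 rested on single libraries: it was lost in 7 of 12 cases with a library left out (any scramble library, Activin A library 2 or 3, NASH GFP library 3 or hairpin library 3) and with the replicate number as a block (-3.64). The call of Mup1 was lost without Activin A library 1 (-3.24 ± 0.86). Without NASH GFP library 1 all 7 were called, from -6.64 ± 0.44 for Mup7 to -2.26 ± 0.27 for Mup20. For all 7 members the Activin A value lay below 0 and the hairpin value above 0, each read against its own control. The vectors differ in promoter (TBG or H1) and cargo, whose part in the difference was not tested.

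**Figure D4:**
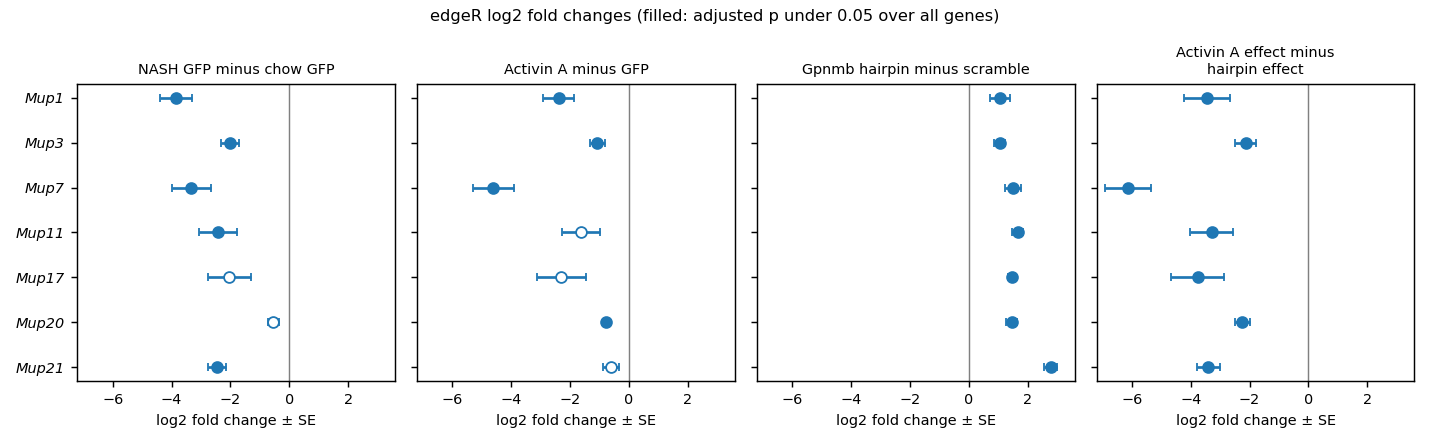
Log2 fold change ± SE (edgeR) of each member in the 3 comparisons and in the difference between the Activin A and hairpin effects; filled points had an adjusted p under 0.05 over all genes. Values lie below 0 for the diet (-3.86 to -0.55) and Activin A (-4.62 to -0.62) and above 0 for the hairpin (1.05 to 2.79).

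Genes of the family that were not members were read in the same comparisons, but many are not independent of the members. Mup12 shared 75.5% of its 100-base stretches with Mup1, and Mup14 55.6% with Mup11. Stretches found in no other gene made up 22.5% for Mup12, 24.3% for Mup14 and 2.66% for Mup15. Which gene their reads came from is therefore uncertain as well. Of the 14 other coding genes 12 were tested in each comparison, and Mup4 and Mup5 were not. On the diet 8 of 12 fell (5.82% of all genes), with a median of -1.42. Under Activin A 4 of 12 fell (3.86% of all genes), Mup12, Mup15, Mup2 and Mup14, with a median of -2.50. With the Gpnmb hairpin 4 of 12 rose (12.2% of all genes), Mup12, Mup14, Mup15 and Mup9, with a median of 0.51. Mup12, the coding gene closest to both Mup1 and Mup7, had the highest level of them per kilobase. It stood at 2115, 8863 and 12688 CPM in chow, 106, 1040 and 884 in NASH GFP, 20.8, 44.5 and 11.8 in Activin A, 571, 978 and 797 in scramble and 1509, 3713 and 4106 in Gpnmb hairpin libraries. Its groups did not overlap in any of the 3 comparisons. Its log2 fold changes for diet, Activin A and hairpin were -3.50 ± 0.80, -4.72 ± 0.79 and 1.99 ± 0.32 (edgeR adjusted p = 0.0143, 0.0094 and 0.00162), and the Activin A minus hairpin difference was -6.71 ± 1.03 (adjusted p = 0.00116). Without NASH GFP library 1 these were -2.99 ± 0.61 for the diet, -5.23 ± 0.45 for Activin A and -7.22 ± 0.81 for the difference, all called, while the Activin A call of Mup12 was lost without Activin A library 1 or 3. The number of other coding genes called lower under Activin A was 7 without NASH GFP library 1, 2 without NASH GFP library 2 and 1 without Activin A library 1, and on the diet it was 5 without chow library 1.

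Some copies did not follow the members. Mup6, the coding gene on the plus strand, had few counts, with means of 0.628 ± 0.774 CPM in chow and 2.20 ± 0.840 in NASH GFP livers, and its diet change of 1.87 ± 0.76 was not called (edgeR adjusted p = 0.124). Mup8 stood at 1.12, 6.38 and 85.4 CPM and Mup19 at 4.42, 98.8 and 475 CPM in the NASH GFP libraries, so single libraries set their means. With the hairpin, Mup18 and Mup16 gave -0.64 ± 0.56 (adjusted p = 0.448) and -0.21 ± 0.50 (adjusted p = 0.8), where the members were all higher.

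Many single pseudogenes of the cluster moved against the coding genes with the Gpnmb hairpin, but their sum did not. Summed over all pseudogenes, the share of the library was 0.0162%, 0.0134% and 0.0157% in scramble and 0.0156%, 0.0314% and 0.0526% in hairpin libraries. The mean was thus higher with the hairpin, and the libraries overlapped. Of 21, 10 were tested in that comparison. Of these 6 fell, where 12.0% of all genes were called lower, and 1 rose, where 12.2% were called higher. The 6 that fell, Mup-ps7, Mup-ps8, Mup-ps10, Mup-ps12, Mup-ps14 and Mup-ps16, were all on the plus strand, where 8 pseudogenes were tested. Their levels were low: Mup-ps16, the most abundant of them, stood at 23.0, 21.7 and 21.7 CPM in scramble and 7.35, 6.55 and 7.68 in hairpin libraries, a log2 fold change of -1.62 ± 0.11 (edgeR adjusted p = 1.08e-05). Mup-ps16 lies within the plus-strand transcript Gm13775 (chromosome 4, 61783123 to 61801286), which also fell, by 1.36 ± 0.11 on the log2 scale (edgeR adjusted p = 4.16e-05). The strand setting of the counting is not given, so reads of overlapping genes cannot be assigned between them. Mup-ps19, which shares stretches with Mup20, rose by 1.80 ± 0.37 with the hairpin (adjusted p = 0.00561) and fell by 1.52 ± 0.15 under Activin A (adjusted p = 0.0011), and stood at -0.27 ± 0.25 on the diet (adjusted p = 0.513). Those are the directions of Mup20 in the same comparisons. On the diet 4 of 10 pseudogenes tested fell, Mup-ps20 among them, where 5.82% of all genes were called lower. The count was 2 without NASH GFP library 1 or 2 and 1 without chow library 1. Mup-ps20 had 119, 23 and 61 counts in the chow libraries and 0, 1 and 0 in the NASH GFP libraries. The counts of Mup-ps20 were 0, 3 and 0 in Activin A livers and 0 in each scramble and hairpin library, too few for a fold.

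**Figure D5:**
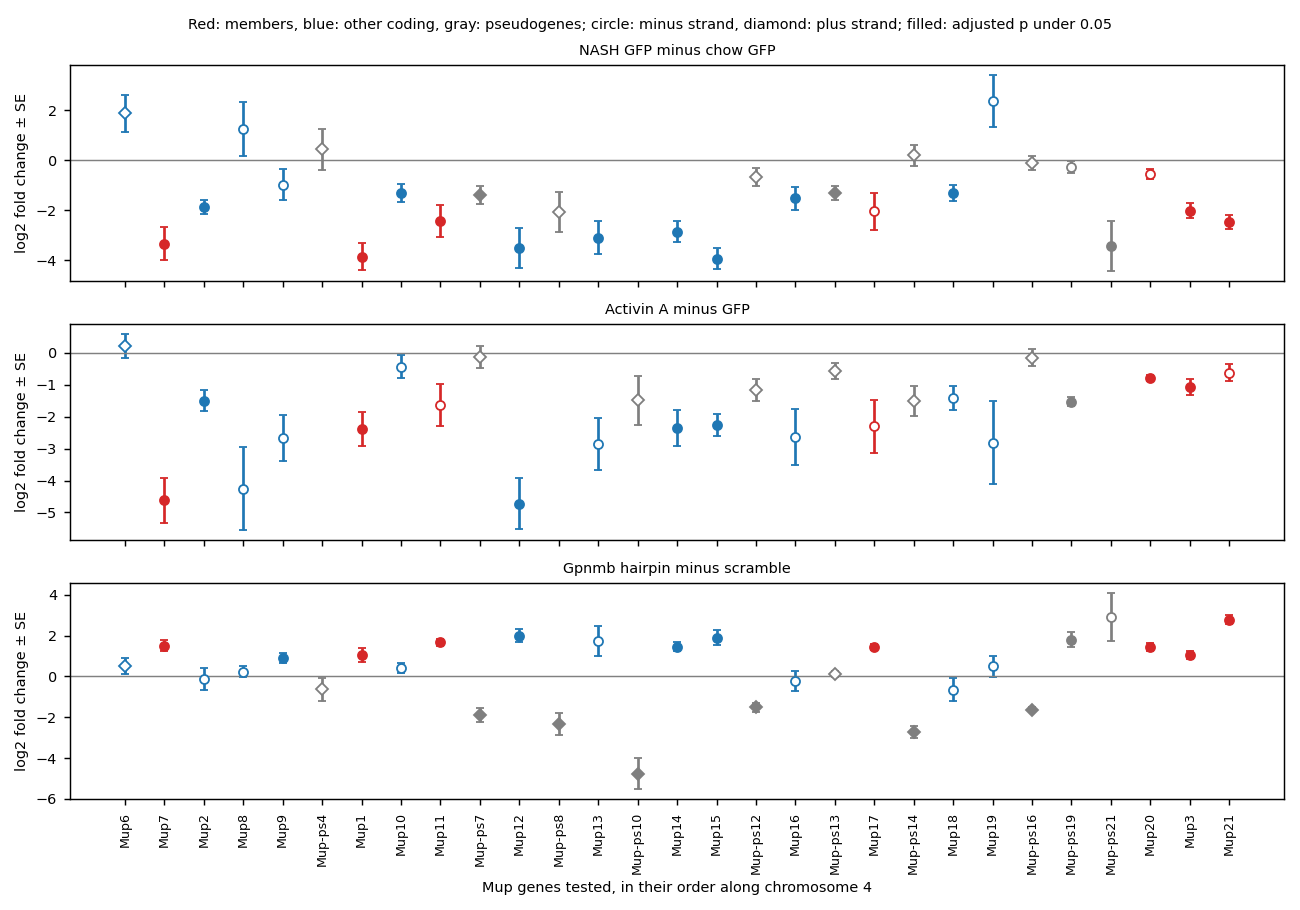
Log2 fold change ± SE (edgeR) of every tested Mup gene, in order along chromosome 4, in the 3 comparisons; red marks members, blue other coding genes and gray pseudogenes, circles the minus and diamonds the plus strand, and filled points had an adjusted p under 0.05; Mup-ps20 is left out. With the Gpnmb hairpin the 7 members lie between 1.05 and 2.79, and the 8 plus-strand pseudogenes between -4.77 and 0.13.

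Genes beside the cluster were read in the same fits. Of the 5 tested genes nearest each end, 9 were tested on the diet, where Hsdl2 rose by 0.82 ± 0.22 and Slc31a1 fell by 0.55 ± 0.14 on the log2 scale (edgeR adjusted p = 0.0289 and 0.0233). Over all genes, 11.2% were called higher and 5.82% lower on the diet. Under Activin A the 9 flanking genes had adjusted p-values from 0.306 to 0.976. With the hairpin 3 of 10 rose (12.2% of all genes), Ptbp3 by 0.43 ± 0.07, Hsdl2 by 0.32 ± 0.07 and Slc31a1 by 0.28 ± 0.07 (adjusted p = 0.00162, 0.00881 and 0.0115). Called flanking genes thus changed by at most 0.82 on the log2 scale, while 6 of 7 members stood at -2.01 or lower on the diet. Inside the cluster, Gm13773, Gm21320 and Gm12909 fell on the diet, with Gm13773 at -3.87 ± 0.65 (adjusted p = 0.00293), and Gm21320 rose by 0.58 ± 0.15 with the hairpin (adjusted p = 0.0158). Gm13773 spans the pseudogene Mup-ps6, so their reads may be shared. Mup22, an annotated gene with no such symbol among the genes counted here, shared 54.5% of the 100-base stretches of Mup10. Whether Gm21320, a protein-coding gene on the minus strand, is a Mup copy under another symbol was not tested. On the diet Slc31a1 and Gm12909 were not called without NASH GFP library 1, and of the 6 cases with a library left out, Hsdl2 was called in 2, Slc31a1 in 1 and Gm12909 in 2. With the hairpin Gm21320 was called in 3 of 6, and Hsdl2 and Slc31a1 were not called without scramble library 3.

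Promoter sequence, the 250 bases before the RefSeq start site (GRCm38.p6), was at hand for 5 of the 7 members: Mup3, Mup7, Mup11, Mup17 and Mup21. Mup3 and Mup21 had 228 of 250 bases in common (91.2%) and Mup11 and Mup17 had 225, while the other pairs had 38.8% to 72.8%. The windows do not cover the same stretch, as the start sites are set differently. Bases that end the Mup7 window lie well inside the windows of the other 4 members. Low shares of pairs with Mup7 thus come in part from where the windows lie, and are no measure of how far the promoters have diverged. The promoters of Mup3 (chr4:62087318-62087567, minus strand) and Mup21 (chr4:62150842-62151091, minus strand) are shown because these genes are alike in sequence, yet stood far apart in their change with the hairpin. Capitals mark a match to AGAACA, letters bound by the glucocorticoid receptor in part of its full element, on the opposite strand.
Mup3: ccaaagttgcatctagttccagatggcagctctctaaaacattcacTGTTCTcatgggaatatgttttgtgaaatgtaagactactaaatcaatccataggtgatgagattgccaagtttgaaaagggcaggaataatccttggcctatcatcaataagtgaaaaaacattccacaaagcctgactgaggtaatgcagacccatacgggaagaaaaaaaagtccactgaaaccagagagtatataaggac
Mup21: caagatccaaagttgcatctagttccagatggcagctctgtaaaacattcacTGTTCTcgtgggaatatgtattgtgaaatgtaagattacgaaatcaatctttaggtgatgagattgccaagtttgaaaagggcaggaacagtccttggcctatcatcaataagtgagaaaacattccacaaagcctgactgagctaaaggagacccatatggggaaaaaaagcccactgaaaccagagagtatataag
AGAACA, searched on both strands, was present once in each of these promoters and was not found in the windows of Mup7, Mup11 and Mup17; 16.1% of 32851 promoters of this length hold it. TATAAA (12.4% of promoters) and the Stat-type sequence TTCNNNGAA (7.02%) were not found in the windows of the 5 members. Only exact letters were searched. The near match TATATAAG stands in the windows of Mup3, Mup17 and Mup21, and those of Mup7 and Mup11 end before its place. The Mup17 window starts within the place of the AGAACA match of Mup3, so that place was not covered whole. Absence from a window is therefore not absence from a promoter. Such matches describe letters only.

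Across the 15 libraries the members rose and fell together, as the groups did. Pearson's r of log2(CPM + 1) between pairs of members ran from 0.733 (Mup1 and Mup20) to 0.965 (Mup11 and Mup17), a description over libraries that share group and depth. After the group means were taken away, r over the same 15 libraries was 0.938 for Mup3 with Mup21, 0.921 for Mup11 with Mup17, 0.909 for Mup7 with Mup11 and 0.849 for Mup1 with Mup7. Mup20 had the lowest values, from 0.091 with Mup17 to 0.540 with Mup1. These within-group values rested in part on NASH GFP library 1: over the other 14 libraries they were 0.873, 0.571, 0.551 and 0.829 for the same 4 pairs, and Mup7 with Mup17 went from 0.762 to -0.207. Without library 1 Mup20 had 0.160 with Mup17 and 0.717 with Mup21. Before group means were taken away, r over the 14 libraries ran from 0.751 to 0.958. Outside the family, the genes nearest the members other than Mup21 over the 15 libraries, among 11858 genes compared, were Susd4 for Mup1 (r = 0.969), Agxt for Mup3 (0.977), Iigp1 for Mup7 (0.968), Gm31583 for Mup11 (0.948), Usp3 for Mup17 (0.926) and Znrf2 for Mup20 (0.922). Susd4 was also the second nearest to Mup7 (0.967), and Slco1a1, a male-biased transporter of organic anions, the third nearest to Mup11 and Mup17 (0.943 and 0.921). In deviations from group means the nearest were Bcat2, Cyp2c37, Dact1, Cyp7b1, Cyp3a13, Wbp1 and Retreg1 for Mup1, Mup3, Mup7, Mup11, Mup17, Mup20 and Mup21, with r from 0.880 to 0.962, and from 0.648 (Cyp3a13 for Mup17) to 0.918 (Cyp2c37 for Mup3) without NASH GFP library 1.

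Other male-biased liver genes, a list of 17 that holds no Mup gene, were read beside the members. On the diet 14 of 17 fell, where 5.82% of all genes were called lower, with a median log2 fold change of -1.82, beside -0.01 over all genes. With the hairpin 15 of 17 rose, where 12.2% of all genes were called higher, with a median of 1.03, beside 0.00 over all genes. Under Activin A 6 fell and 2 rose, with a median of -0.06 (0.00 over all genes), beside -1.63 for the Mup members. Over all genes, 1.66% were called higher and 3.86% lower under Activin A. Selenbp2, a selenium-binding protein gene, fell by 4.67 ± 0.21 on the diet (edgeR adjusted p = 6.02e-06). Serpina1e, a male-biased alpha-1-antitrypsin copy whose reads may be shared with its paralogs, stood at 134, 140 and 132 CPM in scramble and 1252, 1506 and 1573 in hairpin libraries, a rise of 3.41 ± 0.10 (adjusted p = 5.26e-08). It also rose under Activin A, by 1.23 ± 0.16 (adjusted p = 0.00292), against the direction of the Mup members. Cyp4a12a, an androgen-responsive fatty acid hydroxylase, stood at 199, 245 and 342 CPM in NASH GFP and 90.1, 104 and 93.6 in Activin A libraries and fell by 1.45 ± 0.18 (adjusted p = 0.00247). The number of these genes falling under Activin A was 7 without NASH GFP library 1, and the number rising was 5 without NASH GFP library 3. With each Activin A library left out in turn, 2 fell and 1 rose. On the diet 13 fell without NASH GFP library 1.

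Female-biased liver genes were largely too low to test, with 7 or 8 of 16 tested. On the diet 6 of 7 rose, where 11.2% of all genes were called higher, with a median of 2.11. With the hairpin 4 of 8 fell, with a median of -1.37, and Fmo2, a flavin monooxygenase, rose by 0.55 ± 0.18 (edgeR adjusted p = 0.0418), a call held in 2 of 6 cases with a library left out, those without scramble library 1 or hairpin library 1. That compares with 12.0% of all genes called lower and 12.2% higher with the hairpin. Under Activin A 3 of 8 fell (3.86% of all genes), with a median of -0.83, and 5 fell without NASH GFP library 3. Fmo2 rose by 0.84 ± 0.20 (adjusted p = 0.0392), a call lost without NASH GFP library 1 (0.93 ± 0.23) and without each Activin A library. Without NASH GFP library 1, 6 of 7 rose on the diet and 3 of 8 fell under Activin A. Cyp17a1, a steroid hydroxylase, stood at 6.41 ± 0.187 CPM in chow, 45.3 ± 8.30 in NASH GFP, 16.5 ± 1.96 in Activin A, 49.3 ± 5.52 in scramble and 22.5 ± 6.51 in hairpin livers. Its changes were 2.86 ± 0.18, -1.46 ± 0.15 and -1.13 ± 0.17 on the log2 scale for diet, Activin A and hairpin (adjusted p = 2.27e-05, 0.00113 and 0.00115). Under the hairpin it moved against the members, and under Activin A in the same direction as the members. Cyp2b9, another female-biased cytochrome P450, stood at 38.0, 46.7 and 44.1 CPM in scramble and at 1.16, 0.158 and 0 in hairpin libraries, and fell by 6.69 ± 0.42 (adjusted p = 7.65e-06).

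Along the growth hormone pathway, calls went both ways in each comparison. Of 26 tested genes of the axis and its regulators, 2 rose and 4 fell on the diet and 2 rose and 2 fell under Activin A, and of 27, 7 rose and 5 fell with the hairpin. Over all genes 11.2% rose and 5.82% fell on the diet, 1.66% and 3.86% under Activin A, and 12.2% and 12.0% with the hairpin. Medians were -0.32, 0.10 and -0.02 on the log2 scale. These counts moved with single libraries: 1 gene rose and 1 fell on the diet, and 1 rose and 1 fell under Activin A, without NASH GFP library 1, 5 rose under Activin A without NASH GFP library 3, 1 rose and 1 fell there with each Activin A library left out in turn, and 4 rose and 3 fell with the hairpin without scramble library 3. The pathway's receptor, kinase and transcription factor are given for their roles, and Esr1 after its values were seen, outside the rule for naming genes. Ghr, the growth hormone receptor, fell by 0.59 ± 0.15 on the diet (edgeR adjusted p = 0.0217), a call held only without chow library 3 among the 6 cases with a library left out, and stood at 0.24 ± 0.10 and 0.01 ± 0.10 under Activin A and the hairpin (adjusted p = 0.217 and 0.957). Jak2, its kinase, lay between -0.17 and 0.05 in the 3 comparisons (adjusted p from 0.511 to 0.88). Stat5b, the transcription factor it activates, rose by 0.40 ± 0.07 with the hairpin (adjusted p = 0.00383) and stood at -0.19 ± 0.17 and -0.12 ± 0.09 for diet and Activin A (adjusted p = 0.5 and 0.56). Socs2, a Stat5 target that restrains the receptor, stood at 6.54, 8.73 and 7.34 CPM in scramble and 21.4, 34.2 and 25.2 in hairpin libraries and rose by 1.84 ± 0.18 (adjusted p = 0.000104). Igfals, a growth hormone target that stabilises Igf1 in blood, fell by 1.36 ± 0.16 on the diet (adjusted p = 0.00049) and rose by 0.56 ± 0.13 under Activin A (adjusted p = 0.041), the latter called only without NASH GFP library 3 among those 6 cases. Prlr, the prolactin receptor, stood at 45.5, 43.4 and 48.0 CPM in NASH GFP and 6.34, 14.2 and 12.1 in Activin A libraries and fell by 2.07 ± 0.23 (adjusted p = 0.00167). Esr1, the estrogen receptor alpha, stood at 13.5, 18.7 and 17.4 CPM in NASH GFP and 44.6, 36.2 and 30.7 in Activin A libraries and rose by 1.17 ± 0.17 (adjusted p = 0.00487). Both changes were called in each of the 6 cases with a library left out.

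Other lipocalins, the wider family of the urinary proteins, did not move as a group: 2 rose and 5 fell of 10 on the diet, 1 rose and 2 fell of 9 under Activin A, and 1 rose and 4 fell of 8 with the hairpin. Of all genes tested, 11.2% were called higher and 5.82% lower on the diet, 1.66% and 3.86% under Activin A, and 12.2% and 12.0% with the hairpin. Among the lipocalins, 1 rose and 3 fell on the diet without NASH GFP library 1, and 4 fell under Activin A without NASH GFP library 3. Lcn2, an iron-sequestering acute phase lipocalin, stood at 30.7, 51.2 and 40.4 CPM in scramble and 9.07, 8.02 and 6.05 in hairpin libraries and fell by 2.41 ± 0.20 (edgeR adjusted p = 3.82e-05), against the direction of the members. Apom, a carrier of sphingosine 1-phosphate, fell by 1.45 ± 0.22 on the diet and rose by 0.53 ± 0.08 with the hairpin (adjusted p = 0.00194 and 0.00115), as the members did. Obp2a, an odorant-binding lipocalin, was at 1.52, 1.96 and 2.48 CPM in chow and 0, 0.0967 and 0 in NASH GFP libraries, too few counts for a fold. It is still included above, as 1 of the 5 that fell on the diet and as the 1 that rose under Activin A.

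Abundant proteins that hepatocytes secrete had medians closer to 0 than the members, a difference that was not tested, and single genes of the lists overlapped. Of 12, 4 fell on the diet, 1 rose and 1 fell under Activin A, and 3 rose with the hairpin, with medians of -0.69, 0.18 and 0.16 on the log2 scale beside -2.43, -1.63 and 1.46 for the 7 members. Shares of all genes called were 5.82% lower on the diet, 1.66% higher and 3.86% lower under Activin A, and 12.2% higher with the hairpin. On the diet Fgb stood at -0.79 ± 0.27 (edgeR adjusted p = 0.0699), where Mup20 stood at -0.55. Serpinc1, antithrombin, fell by 0.70 ± 0.16 on the diet (edgeR adjusted p = 0.0134). Ttr, the thyroid hormone carrier transthyretin, rose by 1.03 ± 0.11 under Activin A (adjusted p = 0.00119), and Fga, the fibrinogen alpha chain, rose by 0.86 ± 0.09 with the hairpin (adjusted p = 0.000218). Without NASH GFP library 1 the 4 diet calls were lost, with the median at -0.51, and 1 was left without NASH GFP library 2 and 2 without chow library 2. Under Activin A 4 rose without NASH GFP library 3, and the 1 call lower, Hpx (named after its values were seen), was lost with each Activin A library left out in turn and without NASH GFP library 2.

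Markers of macrophages moved with the groups, and those of the other cell types did so only in part. The summed level of 6 macrophage markers ran from 111 to 157 CPM in chow, 385 to 451 in NASH GFP, 189 to 235 in Activin A, 381 to 427 in scramble and 194 to 264 in hairpin libraries. On the diet all 6 rose, where 11.2% of all genes were called higher. Under Activin A 5 of 6 fell and with the hairpin 5 of 6, where 3.86% and 12.0% of all genes were called lower. The summed level of 4 stellate cell markers ran from 141 to 177 CPM in chow, 265 to 396 in NASH GFP, 267 to 287 in Activin A, 288 to 342 in scramble and 206 to 240 in hairpin libraries. Endothelial markers ran from 102 to 119 CPM in chow and from 129 to 212 in the 4 NASH diet groups, and biliary markers from 8.64 to 27.1 CPM over all 15 libraries. The summed level of 7 hepatocyte markers ran from 76937 to 109291 CPM in chow, 54012 to 64742 in NASH GFP, 68846 to 70345 in Activin A, 54317 to 65143 in scramble and 65656 to 71788 in hairpin libraries. The sum of hepatocyte markers thus lay higher in Activin A than in NASH GFP libraries, where the sum of the Mup members lay lower. Such a sum weighs the most abundant genes most. Under Activin A 1 of the 7 markers, Ttr, was called higher, where 1.66% of all genes were. The others were not called and lay on both sides of 0, and the median log2 fold change was 0.14. On the diet 2 of 7 were called lower (5.82% of all genes), and with the hairpin 3 of 7 higher (12.2% of all genes). The part of cell make-up in the members' changes was not tested. No marker was at 0 in all libraries, and each list was found whole.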

How the data were processed

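RNA had been extracted with a Qiagen column kit and sequenced as stranded, poly(A)-selected libraries, per the labels' protocols. The authors deposited 3 tables, of 23962, 24357 and 24671 genes, with whole-number counts per gene, not normalized, for the 6 libraries of each comparison. The NASH GFP libraries are in 2 of them, and none of the 23148 genes shared by those 2 differed in these counts. The build was GRCm38 (mm10), per the submitters' processing notes. The sources used here do not give the aligner, counter, strand setting or annotation release. 36 deposited columns of normalized values per library and the authors' fold changes were not used.

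Each comparison was fitted to its 2 groups with edgeR 4.0.16 in R 4.3.3 (quasi-likelihood test, two-sided, trimmed mean of M values (TMM) scaling, filterByExpr with a minimum count of 10, Benjamini-Hochberg adjustment over all genes tested, called under 0.05). The Activin A minus hairpin difference came from a fit over 15 libraries and 5 groups, with a gene missing from a table set to 0 there. SE is the log2 fold change divided by the square root of F. CPM are scaled with TMM factors over the 15 libraries, and with the deposited gene length where genes are compared. With 3 libraries a group, p-values measure the spread between libraries, which may be technical. Counts carried no molecular identifiers.

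Members and gene lists were chosen with earlier results of these data known. Named were the 7 members, other Mup genes by level and calls, at most 3 called genes per list with the smallest p per direction and comparison, the genes most alike to each member in log2(CPM + 1), and the 5 nearest tested genes on each side of the cluster. Fmo2, Fgb, Hpx and Esr1 were named after their values were seen. On simulated counts with 200 changed genes per comparison the test was checked. Alternatives were other scalings, DESeq2 1.42.0, no filter, the 5-group fit, a replicate block and leaving out each library. Coding sequences and shared stretches came from GENCODE M21 transcripts, aligned with mafft 7.526, and promoters from RefSeq. Protein sequences and the promoters of Mup1 and Mup20 were not used here. The gene nearest Mup21 over the libraries is not reported here.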

Additional observations from a re-analysis of the deposited data

Results flagged for a closer look

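The Activin A effect minus the Gpnmb hairpin effect was below 0 on the log2 scale in each of the 7 members, and the test of that difference in the 15-library fit passed the threshold for each: -3.45 for Mup1, -2.13 for Mup3, -6.13 for Mup7, -3.29 for Mup11, -3.76 for Mup17, -2.25 for Mup20 and -3.40 for Mup21. With single libraries left out, Mup17 lost its call in 7 of 12 cases and Mup1 in 1, and Mup17 lost it with the replicate block. The members were chosen with these counts known, so this is a description. With 3 libraries a group, no group was large enough to test single libraries as outliers.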

How the results depend on the processing

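No member changed direction under the alternatives run. Of the members' log2 fold changes under the other scalings, DESeq2, no filter, the 5-group fit and the replicate block, the call was as in the text in 46 of 49 for Activin A (3 gained), 20 of 21 for the Activin A minus hairpin difference (1 lost), 45 of 49 for the diet (4 gained) and 44 of 49 for the hairpin (5 lost). Scaling by library size alone put the median over all genes at 0.24 for the diet, -0.06 for Activin A and -0.11 for the hairpin on the log2 scale. It gave 2671 genes higher and 405 lower on the diet and 1006 higher with the hairpin, and moved the share of calls that were higher from 65.7% to 86.8% for the diet, from 30% to 20.4% for Activin A and from 50.3% to 29% for the hairpin. The 5-group fit called 2475 genes higher and 2025 lower on the diet, 835 higher and 1045 lower with the hairpin, and 4 members higher with the hairpin. Under Activin A, DESeq2 called 389 genes higher and 869 lower, and the test without a filter 372 and 881. Same-numbered libraries did not deviate together (correlations from -0.152 to 0.0374). As these are deviations from means of 3 libraries, they cannot settle whether the numbers pair the libraries. With the replicate block 467 genes were called lower on the diet, and Mup17 was not called in the Activin A minus hairpin difference (-3.64). Leaving out each library in turn, genes called higher and lower ran from 971 to 1472 and 384 to 797 on the diet, 68 to 535 and 180 to 900 under Activin A, 929 to 1685 and 994 to 1811 with the hairpin, and 181 to 314 and 186 to 396 for the difference. Members called lower ran from 4 to 6 on the diet, where Mup11 was not called without NASH GFP library 2, chow library 1 or chow library 3, and from 2 to 7 under Activin A. For the difference they ran from 6 to 7: Mup1 was not called without Activin A library 1, nor Mup17 without Activin A library 2 or 3, NASH GFP library 3, hairpin library 3 or any scramble library. Summed over every Mup gene, the mean share was 3.87% in chow GFP, 0.303% in Activin A, 0.931% in scramble and 2.25% in Gpnmb hairpin livers; with the 10 most abundant other genes left out of the total, the members' share was 3.34% in chow GFP, 0.338% in Activin A and 0.879% in scramble livers. Counts and values of other Mup genes and list genes without each library, and shares and correlations without NASH GFP library 1, were computed after seeing the data. Of the other lipocalins, no gene was called lower under Activin A with each Activin A library left out in turn, and none was called higher on the diet without NASH GFP library 2 or chow library 2 or 3. Depth was lowest for Mup1, with 19 counts in an Activin A library.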
